A study of Mus musculus with 20 samples.

Results

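*Prox1*, *Eomes*, *Neurog2*, *Neurod1*, *Sox11* and *Sox4* are transcription factor genes that mark successive steps from the dividing intermediate progenitor to the granule neuron in the postnatal dentate gyrus. They were taken by gene symbol, not by a threshold on their values, but with earlier results of these data known. They make up 6 of the 47729 genes counted in this series. All 6 were present once in each count file. RNA was sequenced from the cortex and the hippocampus of 10 C57Bl/6J pups at postnatal day 7, which gave 20 libraries. Mice 1 to 5 were WT. Mice 6 to 10 were Ube3aOE, the labels' name for mice that carry additional copies of the ubiquitin ligase gene *Ube3a* on a bacterial artificial chromosome transgene, with the flanking sequence of the gene. Both tissues of each animal were dissected, and the labels number the animals, which ties every hippocampus to the cortex of the same mouse. In the line used for most of the experiments the transgene had inserted in the chromosome that also carries *Neurog2*, and the labels do not name the line sequenced.

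The dentate gyrus keeps making granule neurons after birth, and at the end of the first postnatal week its progenitors are still dividing. Radial stem cells give rise to intermediate progenitors that express the T-box factor *Eomes* (Tbr2) and the proneural factor *Neurog2*, these give rise to neuroblasts that express *Neurod1*, and the neuroblasts become granule neurons under *Prox1*, which the cells keep for life. *Sox11* and *Sox4* are SoxC factors, which newborn neurons of many brain regions use. In the cortex, by contrast, the birth of excitatory neurons is over by this age.

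Total counts on genes ran from 14191093 to 16752326 per library (median 16295195), so depth differed little between libraries. The cortex of WT mouse 2 had the lowest total. It also had the lowest share of reads on genes (69.7%) and the highest share not aligned (8.66%). *Ube3a* fitted the labelled genotype in every library, at 54.4 to 76.8 CPM (counts scaled to the library total after TMM normalization) in WT and 130 to 195 CPM in Ube3aOE mice. In 2 WT mice, 3 and 5, sex-linked genes went against the labelled sex in both tissues. The labelled tissue was compared with 10 marker genes for each tissue. These were chosen with earlier results of these data known, so their calls are not an independent check. *Lhx9* counts among both the hippocampal and the thalamic markers. All 10 hippocampal markers were called higher in hippocampus, and 6 of the 10 neocortical markers were called lower there, while *Bcl11b*, which granule neurons also express, was called higher. Some libraries stood apart in these markers. The neocortical markers summed to 1043 CPM in the hippocampus of WT mouse 2 and to 954 CPM in that of Ube3aOE mouse 9, against 537 to 762 CPM in the other 8 hippocampi. The hippocampal markers summed to 309 and 290 CPM in the cortex of Ube3aOE mice 8 and 9, against 121 to 158 CPM in the other 8 cortices. Thalamic markers were high in the hippocampus of mice 4, 7 and 10 (812 to 1735 CPM, against 273 to 391 CPM), striatal markers in that of mouse 9 (516 CPM, against 42.2 to 67.4 CPM) and choroid plexus markers in those of mice 7 and 9 (1963 and 350 CPM). For the members' differences over all mice, their relations and the list calls, values without these libraries are given where a call changes. The differences within a genotype, the levels per length, the spread and the nearest profiles rest on all libraries.

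The bases in front of the annotated start are shown for the 4 genes that were higher in hippocampus, since all 4 differed between the tissues in the same direction. Sequences are RefSeq's for build GRCm38.p6, read 5′ to 3′ on the strand of the gene and ending at the base before the outermost start in RefSeq or GENCODE. Capitals mark TATATA, the core of a TATA-box type element, and CANNTG, the E-box recognised by basic helix-loop-helix factors such as *Neurog2* and *Neurod1*.
*Prox1*, chr1:190170828-190170977, minus strand: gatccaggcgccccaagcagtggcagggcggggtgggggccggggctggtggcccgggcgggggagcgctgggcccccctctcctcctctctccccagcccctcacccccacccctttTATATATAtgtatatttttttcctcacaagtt
*Eomes*, chr9:118478039-118478188, plus strand: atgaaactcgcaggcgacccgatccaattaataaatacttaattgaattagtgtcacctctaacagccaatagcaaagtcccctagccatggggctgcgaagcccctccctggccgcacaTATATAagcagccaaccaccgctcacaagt
*Neurog2*, chr3:127632985-127633134, plus strand: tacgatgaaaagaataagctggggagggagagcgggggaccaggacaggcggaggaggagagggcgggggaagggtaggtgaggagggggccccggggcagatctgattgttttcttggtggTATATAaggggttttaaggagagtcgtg
*Neurod1*, chr2:79456752-79456886, minus strand: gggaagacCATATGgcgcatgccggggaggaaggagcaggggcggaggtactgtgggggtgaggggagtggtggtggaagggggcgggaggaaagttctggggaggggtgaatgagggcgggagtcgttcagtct
Both motifs read the same on either strand, and the search for TATATA was added after the sequences had been read. In windows of 250 bases before and 50 bases after the RefSeq start, TATATA began 30 bases before the start in *Eomes*, 29 bases before it in *Neurog2*, 31 bases before it in *Neurod1*, and 32 and 30 bases before it, as overlapping matches, in *Prox1*. The match of *Neurod1* lies inside the first exon of GENCODE, which begins 115 bases further upstream, and is therefore not in the stretch printed. *Sox11* and *Sox4* had no TATATA in the window. Of 32851 RefSeq promoter windows of this length, 5.67% held it. CANNTG was in the windows of *Prox1*, *Neurod1*, *Sox11* and *Sox4* and in 72.3% of all windows, while *Eomes* and *Neurog2* had none. These matches are letters in a window and were not tested against any readout.

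Of these genes, 4 differed between the tissues. *Eomes*, *Neurog2*, *Neurod1* and *Prox1* were higher in hippocampus, by 3.33-fold to 24.6-fold in the edgeR fit over all 20 libraries, and in each of them every hippocampus library lay above every cortex library. *Sox11* and *Sox4* did not pass the test. A gene was called at an adjusted *P* value under 0.05 with a log2 fold change beyond 0.5 in either direction. By this rule 12.0% of the 15661 genes tested were called higher in hippocampus, and 1134 of them were called lower. In 5.52% of the genes all 10 hippocampus libraries lay above all 10 cortex libraries. In RNA from whole tissue, fewer cells of a type and less RNA per cell cannot be told apart.

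*Eomes*, the factor of intermediate progenitors (chr9:118478212-118486132 in GENCODE for GRCm38, plus strand), was nearly absent from most cortex libraries. In hippocampus it stood at 17.2, 5.91, 21.5, 15.2 and 18.8 CPM in WT mice 1 to 5 and at 23.7, 18.6, 16.3, 6.56 and 11.0 CPM in Ube3aOE mice 6 to 10. In cortex the values were 0.0638, 0.449, 5.57, 0.128 and 0.436 CPM in WT mice and 0.699, 0.646, 0.895, 0.549 and 0.0633 CPM in Ube3aOE mice. The cortex of WT mouse 3 stood out with 86 counts, while the other 9 cortex libraries held 1 to 15, and it came close to the lowest hippocampus. The log2 fold change was 4.13 (SE 0.52, edgeR adjusted *P* = 3.67e-06), higher in 10 of 10 mice. It was 5.22 without mouse 3, the only mouse whose removal moved it by more than 1.5 times in fold. That cortex also held the highest sum of subventricular zone and olfactory neuroblast markers among cortices, 427 CPM against 306 to 415 CPM, with *Meis2* at 179 CPM against 86.6 to 139 CPM, and their part in the value was not tested.

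*Neurog2*, a proneural basic helix-loop-helix factor (chr3:127633135-127635631, plus strand), was the lowest of the 6 genes and had the largest difference between the tissues over all mice, but without mouse 3 its log2 fold change was 4.41 and that of *Eomes* was the larger at 5.22. Hippocampus libraries of WT mice 1 to 5 held 66, 25, 100, 100 and 106 counts, or 3.87, 1.54, 6.16, 5.75 and 6.12 CPM, and those of Ube3aOE mice 6 to 10 held 84, 83, 71, 24 and 49 counts, or 5.00, 5.01, 4.20, 1.54 and 2.94 CPM. Cortex libraries held 2, 1, 0, 2 and 2 counts in WT mice and 2, 2, 7, 11 and 1 counts in Ube3aOE mice. So the cortex values rest on a handful of reads, and the highest of them belong to mice 8 and 9, the cortices with raised hippocampal markers. Its log2 fold change was 4.62 (SE 0.39, edgeR adjusted *P* = 1.02e-08) and ranked 11 among all genes tested. Without the hippocampi of mice 2 and 9 and the cortices of mice 8 and 9 it was 5.51.

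*Neurod1*, the factor of dentate neuroblasts and young granule neurons (chr2:79452521-79456751, minus strand), was present in both tissues and showed the smallest of the called differences. It measured 71.8, 40.2, 85.6, 72.2 and 87.2 CPM in WT hippocampus and 83.1, 58.9, 69.6, 34.2 and 43.1 CPM in Ube3aOE hippocampus. In cortex it measured 17.0, 27.7, 19.2, 20.7 and 17.7 CPM in WT mice and 12.9, 16.7, 26.7, 21.1 and 13.7 CPM in Ube3aOE mice. The lowest hippocampus, that of mouse 9, was above the highest cortex, that of mouse 2, the library with the lowest share of reads on genes. Hippocampus exceeded cortex by 1.73 on the log2 scale (SE 0.18, edgeR adjusted *P* = 4.97e-07), and within a mouse the ratio ran from 1.45-fold in mouse 2 to 6.44-fold in mouse 6.

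*Prox1*, the homeobox factor of granule neuron identity (chr1:190118035-190170714, minus strand), had the smallest *P* value of the 6 genes. It measured 143, 67.6, 134, 143 and 159 CPM in WT hippocampus and 159, 135, 134, 75.1 and 184 CPM in Ube3aOE hippocampus. In cortex it measured 10.8, 10.5, 12.4, 12.5 and 13.3 CPM in WT mice and 14.3, 11.0, 25.1, 23.6 and 12.7 CPM in Ube3aOE mice. WT cortices were tightly grouped, while the cortices of mice 8 and 9 lay well above the other 8, which ran from 10.5 to 14.3 CPM. The log2 fold change was 3.21 (SE 0.20, edgeR adjusted *P* = 1.26e-09), a rank of 62 by *P* value among all genes tested. Within a mouse the ratio of hippocampus to cortex ran from 3.19 in mouse 9 to 14.5 in mouse 10. *Prox1* is not specific to granule neurons in background knowledge, being also known from interneurons of the caudal ganglionic eminence, oligodendrocyte precursors and lymphatic endothelium. The edgeR calls for these markers were 2 of 8 higher (*Htr3a*, *Cck*) and 2 lower (*Vip*, *Crh*) for the interneurons. For the precursors 1 of 6 was higher (*Sox10*, not called once either set of libraries that stood apart was left out). For endothelium 1 of 6 was higher, against 12.0% of all genes tested. Median log2 differences were 0.16, 0.30 and -0.03 in this order, against -0.01 over all genes. Interneuron markers summed to 232 to 329 CPM in hippocampus and 164 to 200 CPM in cortex, without overlap. *Cck*, their largest part, averaged 192 CPM in hippocampus and 93.4 CPM in cortex. Precursor and endothelial sums overlapped between the tissues. The part of these cells in the *Prox1* difference was not tested.

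*Sox11* (chr12:27334264-27342574, minus strand), which drives the neuronal program in newborn neurons, was at similar levels everywhere. It measured 111, 116, 133, 112 and 139.7 CPM in WT hippocampus, 120.1, 124, 134, 112 and 95.5 CPM in Ube3aOE hippocampus, 95.7, 130.0, 136, 95.7 and 92.2 CPM in WT cortex, and 97.6, 145, 104, 95.02 and 87.4 CPM in Ube3aOE cortex. The tissues overlapped, with the highest value in the cortex of mouse 7, and 7 of 10 mice were higher in hippocampus. Between the tissues it differed by 0.15 on the log2 scale (95% confidence interval -0.05 to 0.35, edgeR adjusted *P* = 0.207).

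*Sox4* (chr13:28948919-28953713, minus strand), the other SoxC factor of the set, behaved much like it. It measured 165, 167, 194, 167 and 186 CPM in WT hippocampus, 186, 200.01, 172, 158 and 171 CPM in Ube3aOE hippocampus, 140.0, 180.0, 192, 143 and 147 CPM in WT cortex, and 159.8, 214, 151, 153 and 146 CPM in Ube3aOE cortex. The values overlapped again, and mouse 7 again had the highest cortex. The log2 fold change was 0.12 (95% confidence interval -0.03 to 0.27, edgeR adjusted *P* = 0.185), and 8 of 10 mice were higher in hippocampus. With the mouse as a replicate block the adjusted *P* value was 0.0327, and the change of 0.13 stayed under the border of 0.5.

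**Figure D1:**
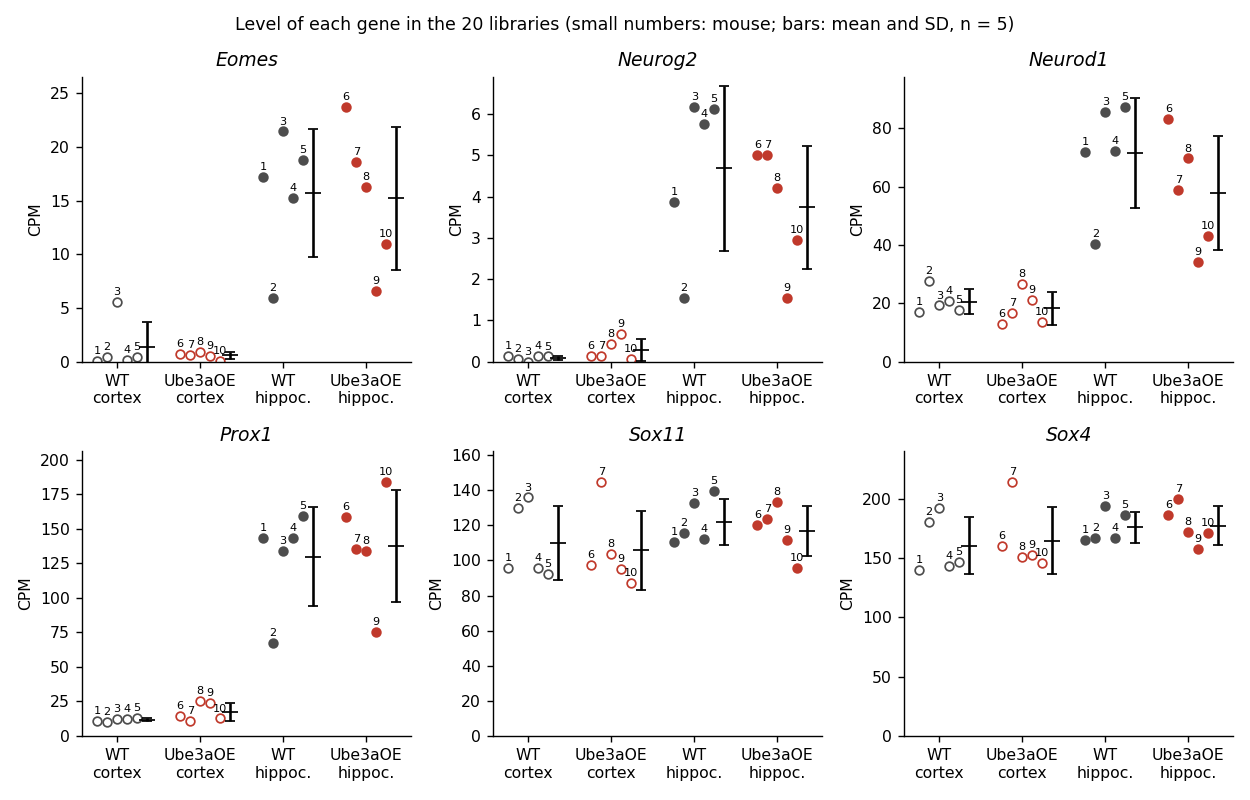
Level of each gene in CPM (vertical axis from 0) in each library, by genotype and tissue (open points cortex, filled points hippocampus, grey WT, red Ube3aOE); numbers name the mouse, and bars give the mean and SD of 5 mice. *Eomes*, *Neurog2*, *Neurod1* and *Prox1* separate the tissues without overlap, with mice 2 and 9 lowest in hippocampus, while *Sox11* and *Sox4* overlap.

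The difference held within mice. In all 10 mice *Eomes*, *Neurog2*, *Neurod1* and *Prox1* were each higher in hippocampus than in the cortex of the same animal (two-sided exact paired permutation test over 10 mice, *P* = 0.00195 for each gene, the smallest value this test can give). The same exact permutation test gave *P* = 0.0684 for *Sox11* and *P* = 0.0293 for *Sox4*. Contrasts within each genotype gave the same calls, and they come from the same edgeR fit of all 20 libraries, with a shared estimate of the spread. In WT mice the log2 fold changes were 3.55 for *Eomes*, 5.56 for *Neurog2*, 1.81 for *Neurod1* and 3.44 for *Prox1*, and in Ube3aOE mice they were 4.71, 3.68, 1.66 and 2.99 in the same order. These values differ by genotype most for *Neurog2* and *Eomes*, whose cortex counts are small, and no interaction of genotype and region was called in any of the 15661 genes tested (0%, with 590 genes at an unadjusted *P* value under 0.05). For *Neurog2* the interaction was -1.88 (95% confidence interval -3.82 to 0.05, edgeR adjusted *P* = 0.997), and it was -0.55 without the libraries of mice 2, 8 and 9 named above.

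**Figure D2:**
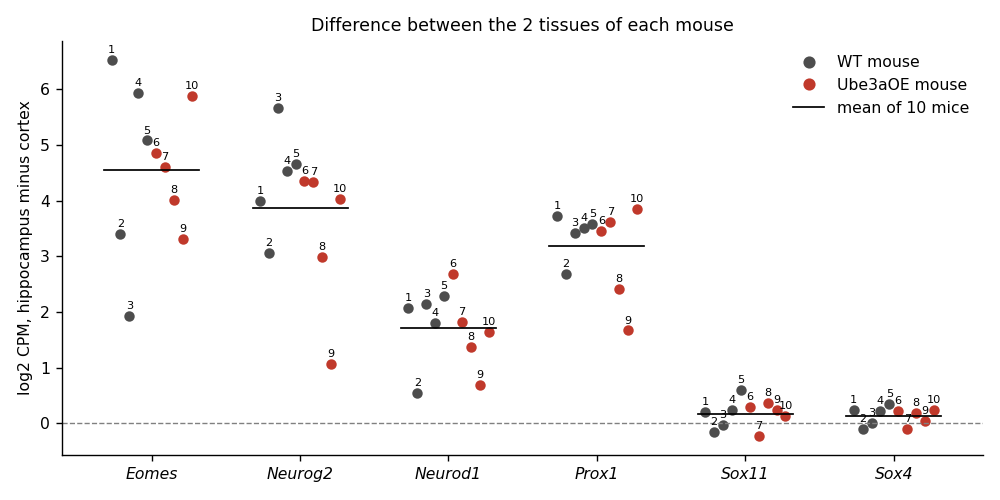
Difference in log2 CPM (prior count of 2) between the hippocampus and the cortex of each mouse, for the 6 genes, with grey points for WT mice, red points for Ube3aOE mice and lines for the mean of 10 mice. All 10 mice lie above 0 for *Eomes*, *Neurog2*, *Neurod1* and *Prox1*, with mouse 9 at 1.67 for *Prox1* and 1.07 for *Neurog2*, and the Sox genes lie around 0.

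Per length of the gene model, the order of the 6 genes was not the same in the tissues. As RPKM, which is CPM divided by the kilobases of exon in the gene model, the hippocampus order was *Sox4* (36.8), *Neurod1* (23.7), *Prox1* (15.9), *Sox11* (14.4), *Eomes* (3.72) and *Neurog2* (1.89). In cortex it was *Sox4* (33.9), *Sox11* (13.0), *Neurod1* (7.09), *Prox1* (1.74), *Eomes* (0.229) and *Neurog2* (0.0837). Neighbours in these orders were compared in the same libraries by a two-sided exact paired permutation test over 10 mice. By this exact test *Prox1* and *Sox11* were not told apart in hippocampus (*P* = 0.557), nor were *Eomes* and *Neurog2* in cortex (*P* = 0.355). The other neighbours had exact permutation *P* values of 0.00195 or 0.00586. So *Neurod1* stood directly below *Sox4* in hippocampus, followed by *Prox1* and *Sox11*, which were not told apart, while in cortex *Neurod1* and *Prox1* were both below *Sox11*.

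The spread between mice was wide for *Eomes*, *Neurog2*, *Neurod1* and *Prox1*, while that of the Sox genes lay on different sides of the common value in the tissues. In hippocampus the biological coefficient of variation was 42.3% for *Eomes*, 41.3% for *Neurog2*, 29.9% for *Neurod1* and 29.6% for *Prox1*, against a common value of 14.9% over all genes, and these lay at percentiles 98.2, 98.0, 94.3 and 94.2 of the genes tested. *Sox11* (11.6%) and *Sox4* (9.64%) were below the common value there. In cortex they were above it, at 17.2% and 13.7% against a common 12.1%, with *Prox1* at 23.8% and *Neurod1* at 22.3%. The hippocampi of mice 2 and 9 were the lowest of the 10 for all 4 genes of the first kind. *Prox1* was 67.6 and 75.1 CPM there and 149 ± 17.4 CPM (SD, n = 8) in the others, and *Eomes* was 5.91 and 6.56 CPM there and 17.8 ± 3.89 CPM (SD, n = 8) in the others. The hippocampal markers were at their lowest in these libraries, with sums of 460 and 485 CPM against 588 to 683 CPM. Whether other tissue in the dissection lowered the 4 genes was not tested.

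Levels of these genes were then related across the 10 mice of a tissue, after the mean of each genotype had been taken out, in 15 pairs per tissue and 30 in all. In hippocampus 3 pairs passed an adjusted *P* value of 0.05 with Pearson's r (two-sided exact permutation within genotypes, 10 mice). *Eomes* and *Neurod1* had r = 0.97 (*P* = 0.000833, adjusted *P* = 0.0194 by exact permutation), with Spearman's rho of 0.82 (exact permutation *P* = 0.0113, adjusted 0.0692). *Eomes* and *Neurog2* had r = 0.96 (exact permutation *P* = 0.00181, adjusted 0.0194) and rho = 0.87 (exact permutation *P* = 0.00285, adjusted 0.0692). *Neurog2* and *Neurod1* had r = 0.93 (exact permutation *P* = 0.00194, adjusted 0.0194) and rho = 0.76 (exact permutation *P* = 0.0144, adjusted 0.0719). No pair passed with Spearman's rho in either tissue.

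The 2 mice farthest from the median were mice 2 and 9 for each of these pairs. Without them r was 0.90 for *Eomes* and *Neurod1*, 0.74 for *Eomes* and *Neurog2* and 0.73 for *Neurog2* and *Neurod1*. The relations of *Prox1* to these 3 genes did not pass, and whether they differ from the others was not tested. Over 10 mice its r was 0.80 with *Eomes*, 0.83 with *Neurog2* and 0.74 with *Neurod1* (adjusted *P* = 0.11 for each by exact permutation), and without mice 2 and 9 the values were -0.45, -0.45 and -0.40, so that its relation to them rests on these mice. Mouse 10 stood apart among the rest, with the highest *Prox1* of any hippocampus (184 CPM) beside low *Eomes* (11.0 CPM), *Neurog2* (2.94 CPM) and *Neurod1* (43.1 CPM). That hippocampus also held the highest thalamic marker sum (1735 CPM), whose part was not tested. With mice 2 and 9 left out from the start no pair passed in 8 mice, where fewer arrangements limit the test. For these pairs the 2 of the 8 mice farthest from the median always included mouse 10. In the 6 mice that remained r was 0.47 for *Eomes* and *Neurod1*, 0.44 for *Eomes* and *Neurog2* and 0.20 for *Neurog2* and *Neurod1*, while for *Prox1* it was 0.03 with *Eomes*, -0.05 with *Neurog2* and 0.47 with *Neurod1*. The size of r in these pairs therefore rests on a few mice.

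In cortex 1 pair passed, *Sox11* with *Sox4*, at r = 0.97 (exact permutation *P* = 0.00417, adjusted 0.0313) and rho = 0.88 (exact permutation *P* = 0.00556, adjusted 0.0692). Without mice 3 and 7, which had the highest values of both genes, r was 0.90. *Prox1* and *Neurog2*, which share their high cortices in mice 8 and 9, had r = 0.77 (exact permutation *P* = 0.0709, adjusted 0.171), and r = -0.06 in the 8 mice left when these cortices are left out from the start.

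**Figure D3:**
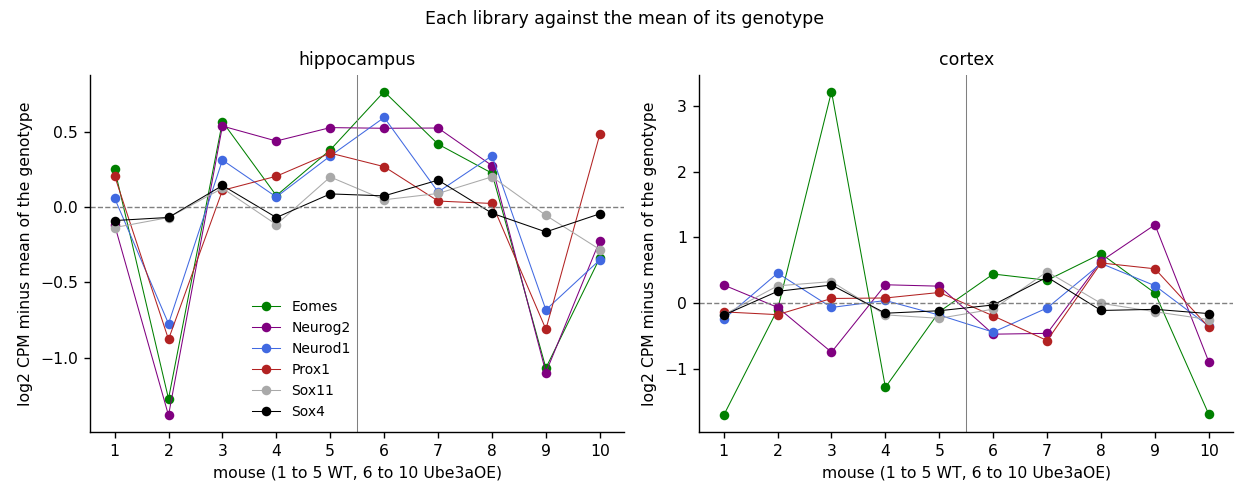
Each library's log2 CPM less the mean of its genotype (vertical axis), by mouse, for the 6 genes in hippocampus (left) and cortex (right); lines join points of a gene only to guide the eye. In hippocampus *Eomes*, *Neurog2*, *Neurod1* and *Prox1* dip together in mice 2 and 9 and part in mouse 10, and in cortex *Eomes* peaks in mouse 3 and *Neurog2* and *Prox1* lie high in mice 8 and 9.

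**Figure D4:**
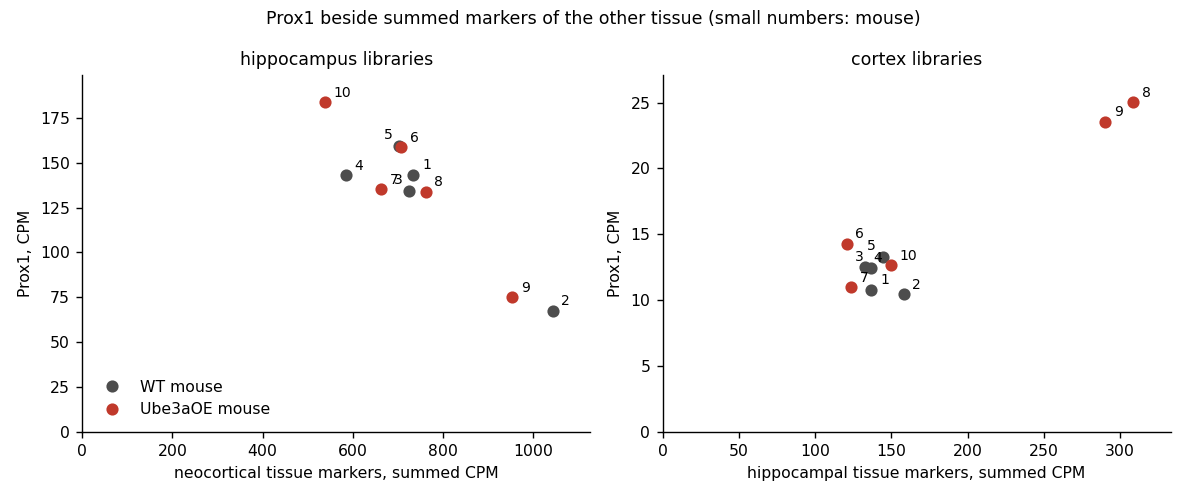
*Prox1* in CPM against the summed CPM of neocortical markers in the 10 hippocampus libraries (left) and of hippocampal markers in the 10 cortex libraries (right), with grey points for WT and red points for Ube3aOE mice. Mice 2 and 9 hold the highest neocortical sums (1043 and 954 CPM) with the lowest *Prox1*, and mice 8 and 9 the highest hippocampal sums (309 and 290 CPM) with the highest *Prox1*.

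Additional *Ube3a* did not move any of the 6 genes, where tested, past the test in either tissue, in edgeR or in DESeq2. *Eomes* and *Neurog2* did not pass the filter of the edgeR fit of the cortex libraries and were not tested in that fit. Only *Prox1* in cortex reached an unadjusted *P* value under 0.05 in edgeR. The comparison asks whether overdosage of this ligase changes the transcriptome of the developing brain. In hippocampus 1 gene of 15220 tested was called (0.00657%), and in cortex 1 of 14947 (0.00669%), in both cases *Ube3a* itself, with a fold of 2.50 and 2.49. At an unadjusted *P* value under 0.05 these shares were 7.21% and 4.44% of genes.

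In hippocampus the progenitor factors were close to WT or lower, within wide intervals. The log2 fold change was -0.05 for *Eomes* (95% confidence interval -0.92 to 0.82), -0.32 for *Neurog2* (-1.17 to 0.52) and -0.31 for *Neurod1* (-0.92 to 0.31), with edgeR adjusted *P* values of 0.977, 0.822 and 0.769. Group means were 15.7 ± 5.94 and 15.2 ± 6.66 CPM for *Eomes*, 4.69 ± 2.00 and 3.74 ± 1.49 CPM for *Neurog2*, and 71.4 ± 18.9 and 57.8 ± 19.7 CPM for *Neurod1* (WT and Ube3aOE, SD, n = 5 each). *Prox1*, at 129.5 ± 35.8 and 137 ± 40.4 CPM, had a log2 fold change of 0.08 (-0.52 to 0.69, edgeR adjusted *P* = 0.939). The ranges of WT and Ube3aOE mice overlapped for each of these genes, and two-sided exact permutation tests over 5 and 5 mice gave *P* values of 0.278 to 0.905.

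The Sox genes gave the narrowest intervals. In hippocampus the log2 fold change was -0.07 for *Sox11* (-0.27 to 0.14) and 0.01 for *Sox4* (-0.15 to 0.17), so that for *Sox4* the interval ran from 90.3% to 112% of the WT level. In cortex the values were -0.05 for *Sox11* (-0.39 to 0.29) and 0.04 for *Sox4* (-0.22 to 0.30). These intervals bound the difference in these mice, and they do not show that the genotypes are alike.

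In cortex *Prox1* had the largest difference of the members tested. It was 11.9 ± 1.20 CPM in WT and 17.3 ± 6.52 CPM in Ube3aOE mice (SD, n = 5 each), a log2 fold change of 0.55 (95% confidence interval 0.06 to 1.03), with an unadjusted *P* value of 0.0296 and an adjusted *P* value of 0.960 in edgeR, and *P* = 0.103 in the two-sided exact permutation test. The groups overlapped, with Ube3aOE mice 7 and 10 inside the WT range. The higher mean came from mice 8 and 9, the cortices with 309 and 290 CPM of hippocampal markers and with *Fibcd1*, a gene of hippocampal field CA1, at 54.7 and 44.1 CPM against 5.17 to 10.2 CPM in the other 8. Without these libraries the log2 fold change was 0.09, without mouse 8 alone 0.37 and without mouse 9 alone 0.41. Mice 8 and 9 are both Ube3aOE, so genotype and other tissue in the dissection cannot be told apart there. The part of other tissue was not tested. *Neurod1* was 20.5 ± 4.27 and 18.2 ± 5.74 CPM (SD, n = 5), a log2 fold change of -0.16 (edgeR adjusted *P* = 0.977), and -0.50 without the same libraries. *Eomes* and *Neurog2* were too low in cortex to pass the filter of the edgeR fit of the cortex libraries, which therefore gave no test of them. WT and Ube3aOE cortices held 102 and 46 counts of *Eomes* in all, of which 86 came from WT mouse 3 (exact permutation *P* = 0.944, n = 5), and 7 and 23 counts of *Neurog2*, of which mice 8 and 9 held 7 and 11 (exact permutation *P* = 0.183, n = 5).

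**Figure D5:**
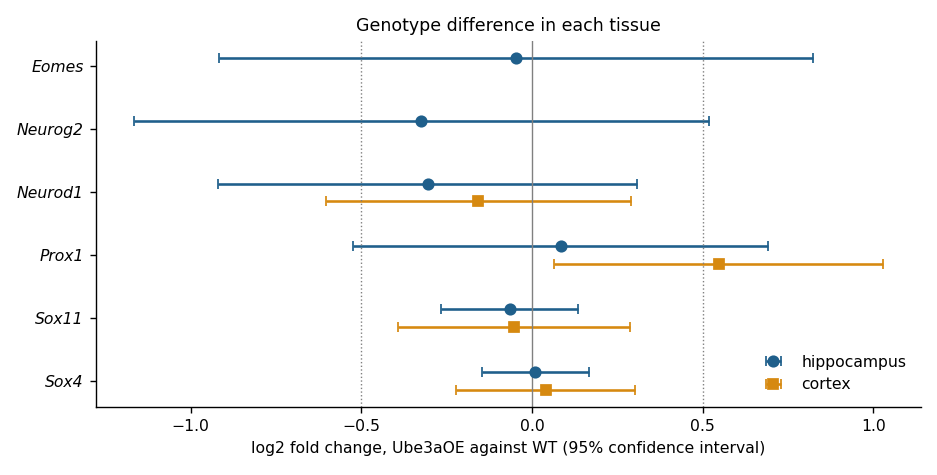
Log2 fold change of Ube3aOE against WT mice with its 95% confidence interval (horizontal axis) for each gene in hippocampus (circles) and cortex (squares), with dotted lines at the border of 0.5 on either side. The intervals include 0 except that of *Prox1* in cortex (0.06 to 1.03), and *Eomes* and *Neurog2* have no value in cortex.

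The genes that work beside these factors were taken from lists, and their edgeR calls between hippocampus and cortex are counts with no test of the list. The lists share genes, so their counts are not separate evidence. *Emx2*, *C1ql2*, *Zbtb20*, *Lef1* and *Lhx9* are also among the hippocampal markers above, and *Tbr1* and *Bcl11b* among the neocortical markers. Over all genes the median log2 difference was -0.01, with 1880 of 15661 genes called higher (12.0%) and 1134 called lower. Of 15 stem cell and Notch genes tested, 12 were called higher and 1 lower (*Hes1*, a Notch target, -0.55), with a median of 0.85. The largest were *Tfap2c*, a factor of neural progenitors that acts upstream of *Eomes* (3.34), *Hopx*, a marker of dentate stem cells (1.87), *Emx2*, a homeobox factor that the hippocampus needs to form (1.81), and *Id4*, an inhibitor of basic helix-loop-helix factors (1.42). Of 11 companions of intermediate progenitors, 8 were called higher and 1 lower (median 0.75). *Neurod4* (3.07), the zinc finger factor *Insm1* (1.54), the antiproliferative gene *Btg2* (1.10) and the Notch ligand *Dll1* (0.99) led, and *Tbr1*, which in cortex marks deep-layer neurons, was lower (-0.91). *Neurog1*, the nearest relative of *Neurog2*, was at 0.0768 CPM in hippocampus and 0.00597 CPM in cortex and was not tested.

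Genes of young neurons were split. Of 16 other basic helix-loop-helix and immature neuron genes, 5 were called higher, against 12.0% of all genes tested, and 3 lower, with a median of -0.30. *Igfbpl1*, known from newborn neurons, rose to 116 CPM in hippocampus from 9.40 CPM in cortex (3.63), and *Calb2*, which immature granule neurons express (1.84), was also higher, while *Pou3f2*, an upper-layer cortical factor (-2.18), and the microtubule genes *Stmn1* (-0.95) and *Dcx* (-0.59) were lower. *Calb2* is also on the thalamic list, and without the hippocampi of mice 4, 7 and 10 it was 1.48 and still called, while *Dcx* (-0.48) was not. Of 15 genes of maturing granule neurons, 8 were called higher and 1 lower (*Id2*, -0.92), with a median of 0.73, led by *C1ql2* (4.27), the desmosome gene *Dsp* (2.56), *Zbtb20* (2.03) and *Lct* (1.83).

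Signals of the dentate niche moved in part. Of 15 Wnt, reelin, BMP and *Cxcl12* genes tested, 5 were called higher and none lower (median 0.27). These were *Wnt8b*, a ligand of the medial margin of the cortex (6.03), the Wnt effector *Lef1* (1.75), the receptor *Cxcr4* (1.49), *Wnt5a* (1.15) and *Wnt3* (0.84). *Wnt8b* was low, at 1.04 CPM in hippocampus and 0.0122 CPM in cortex, so the size of its fold rests on very few reads in cortex. *Wnt3* and *Lef1* depended on the hippocampi with high thalamic markers. Without those of mice 4, 7 and 10 *Wnt3* was -0.01 and not called, *Lef1* was 0.66 and still called, and *Bmp4* (-0.64) and the receptor *Fzd10* (-1.82) were called lower. Without the libraries of mice 2, 8 and 9 *Wnt3* also lost its call, at 0.86. Of 10 cell division genes, 8 were called higher and none lower (median 0.60), with *Ccnb1* at 0.98, *Top2a* at 0.97, *Mcm2* at 0.77 and *Ccna2* at 0.74. Markers of other cells and tissues were also called higher in hippocampus, with 5 of 7 for Cajal-Retzius cells, 6 of 8 for thalamus and 4 of 5 tested for choroid plexus, while those of the subventricular zone and olfactory neuroblasts gave 2 higher and 1 lower of 7 and those of striatum 1 higher and 2 lower of 6. Without the hippocampi of mice 4, 7 and 10, 4 of 8 thalamic markers and 7 of 10 cell division genes were called higher, with *Cdk1* at 0.44, and 0 neuroblast and 1 striatal marker were called lower. Without the libraries of mice 2, 8 and 9, 3 of 5 choroid plexus markers were called higher, and 3 striatal markers, 4 immature neuron genes and 7 neocortical markers lower. The stem cell, progenitor and maturing granule neuron lists had the same numbers of calls in both cases. Of the 150 genes on these lists, edgeR tested 146 in hippocampus and 135 in cortex between the genotypes and called 0, with 10 at an unadjusted *P* value under 0.05 in each tissue. DESeq2 also called 0, with 16 and 15 genes under that value.

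The 3 genes with the profile most like each member were found by the root mean square difference of log2 CPM, each gene centred on its own mean, over the 20 libraries and all 15661 genes tested. For *Prox1* these were the tetraspanin *Tspan18* (0.30), *Prox1os* (0.37), which is transcribed from the opposite strand, and *Il16* (0.38). *Prox1os* shares 133 exon bases with *Prox1*, and since the strand setting of the counting is not given in the sources used here, their reads may not be fully apart. *Sox4* shares 2616 of its 4795 exon bases with *Gm26735* on the opposite strand, and *Neurod1* shares 201 with *Cerkl* on its own strand, so that their levels may be understated if shared reads were set aside. For *Eomes* they were *Tfap2c* (0.81), *Igfbpl1* (0.81) and *C1ql2* (1.03), 3 genes of the lists above. For *Neurog2* they were *Cabp7* (0.39), *Il16* (0.45) and *Ifi203* (0.47), and for *Neurod1* *Hopx* (0.25), *Rnf182* (0.26) and *Wipf3* (0.27). *Sox4* was the second closest gene to *Sox11* (0.11), after *Lmnb1* (0.10) and before *Bzw2* (0.13), while the closest to *Sox4* were *Rrm2* (0.09), *Rela* (0.10) and *Msi1* (0.10), and genes with little change between libraries are near to each other by this measure.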

How the data were processed

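Per the labels, libraries were made with a stranded mRNA kit. The authors deposited whole-number read counts per gene, not normalized, 1 file per library; the submitters' processing notes name HISAT2 2.1.0, HTSeq 0.11.2 and GRCm38/mm10. The annotation release and strand setting are not given in the sources used here. HTSeq's 5 summary lines stayed out of totals and tests (69.7% to 81.2% of reads were on genes). Positions and lengths came from GENCODE M21 (98.9% of identifiers). Members and lists were chosen with earlier results of these data known.

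Counts were fitted in R 4.3.3 with edgeR 4.0.16 (TMM, filterByExpr, robust quasi-likelihood F test, Benjamini-Hochberg adjustment): regions and interaction over 20 libraries, genotypes over the 10 of each tissue. DESeq2 1.42.0 was an alternative. The fit was tested on simulated data. Single genes were compared by exact permutation in Python (scipy 1.17.1); with 5 mice a group the smallest *P* value is 0.00794. Replicates are separate mice, and pairs in a group differed beyond counting noise (chi-square 4.85 to 48.1 per degree of freedom). The highest values, 35.45 to 48.1, were those of WT cortex pairs with mouse 2. Mouse numbers pair the tissues by label; deviations from group means in hippocampus and cortex of the same animal had a median r of 0.215 over genes (above 0.1 in 9 of 10 mice). Named were the members, the 4 called list genes of largest change and the 3 genes of nearest profile; other list genes were named after their values were seen. The lists cover stem cell and Notch genes, progenitor companions, immature neurons, maturing granule neurons, niche signals, cell division, and markers of tissues and cells given above.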

Additional observations from a re-analysis of the deposited data

Results flagged for a closer look

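In each group of 5 libraries the sample farthest from the rest was compared with Dixon's 95% limit, over 24 groups (6 genes in 4 groups), of which chance flags about 1 in 20. In 4 of them a sample lay beyond it. *Prox1* in WT hippocampus was 67.6 CPM in mouse 2, against 134 to 159 CPM in the other 4. *Eomes* in WT cortex was 5.57 CPM in mouse 3, against 0.0638 to 0.449 CPM. In Ube3aOE cortex, mouse 7 held both *Sox11* at 145 CPM, against 87.4 to 104 CPM, and *Sox4* at 214 CPM, against 146 to 159.8 CPM. The immature neuron list summed to 11188 CPM in that library, the highest of the 10 cortices (8919 to 10083 CPM in the others), and its part in the Sox values was not tested.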

How the results depend on the processing

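Between the tissues the same 4 genes stayed called and the Sox genes uncalled under DESeq2, upper quartile scaling, library totals without TMM, no filter, removal of length and GC trends, labelled sex as a covariate, each mouse left out, and 2 sets of libraries left out after their markers were seen. The labelled sex went against sex-linked genes in mice 3 and 5, so that covariate does not settle the part of sex. In these settings log2 differences ran from 3.10 to 3.60 for *Prox1*, 3.97 to 5.22 for *Eomes*, 4.41 to 5.51 for *Neurog2* and 1.60 to 2.05 for *Neurod1*. With the mouse as a replicate block, the pairing given by the labels, 4 members were called, with *Prox1* at 3.20, *Eomes* at 4.36, *Neurog2* at 4.60 and *Neurod1* at 1.71, and the interaction called none; adding the length and GC correction left 4. Genotype calls stayed at 0 in each alternative, DESeq2 and the fit of all 20 libraries included. In relations, leaving out the 2 libraries with markers of another tissue left 0 pairs in hippocampus and 0 in cortex, where fewer mice limit the test, and a prior count of 0.5 changed neither count. DESeq2 size factors and the longest transcript moved no group mean by more than its SD.

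Uncalled genotype differences near 0 changed sign when a mouse was left out: in hippocampus *Prox1* (-0.075 to 0.24), *Eomes* (-0.26 to 0.15), *Sox11* (-0.11 to 0.0010) and *Sox4* (-0.036 to 0.054), in cortex *Sox11* (-0.19 to 0.037) and *Sox4* (-0.071 to 0.12), and in the interaction *Eomes* (-1.01 to 1.51), *Neurod1* (-0.42 to 0.046), *Sox11* (-0.10 to 0.11) and *Sox4* (-0.091 to 0.040). Without the hippocampi of mice 4, 7 and 10 the hippocampal difference was -0.035 for *Prox1* and -0.046 for *Sox4*, and the interaction of *Sox11* was 0.024. Without the hippocampi of mice 2 and 9 and the cortices of mice 8 and 9 the interaction of *Neurod1* was 0.19. The causes were not tested. Depth limits *Eomes* and *Neurog2* in cortex, with 148 and 30 counts over 10 libraries.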
